A study of Mus musculus with 2 samples.

Results

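Claudin, desmosome and gap junction genes were read from bulk RNA-seq of 2 murine rhabdoid tumors (RT), aggressive tumors in which the chromatin remodeler subunit Smarcb1 is usually lost. Members were chosen by name: all protein-coding genes whose symbols mark them as claudins, desmogleins, desmocollins, plakophilins, connexins of the alpha, beta and gamma classes or zonula occludens proteins, together with Dsp, Jup, Ocln, Marveld2, Marveld3 and Epcam. This gave 61 of the 55416 genes in the count table. Both mice were Dppa3-cre::Smarcb1 Fl/+ on a C57BL/6 background. Cre stood under the Dppa3 promoter, which is active in primordial germ cells, and the single floxed Smarcb1 allele was shared by both animals. The second allele had to be lost by chance, so each tumor is its own event. One tumor was labelled intracranial, from the trigeminal nerve, and the other extracranial, from the facial, maxillar region. Both were classified as MYC, and neither age nor sex was given in the sources used here. No normal tissue was sequenced alongside them, and the libraries are named here by their location labels.

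Each location had 1 library, so no difference below has a replicate check, and no p-value is given. The libraries held 34545846 counts (intracranial) and 26915696 counts (extracranial). Levels are counts scaled to library size (CPM), and a level is compared between genes only per kilobase of exon. Ratios are extracranial over intracranial on the log2 scale, with an exact binomial 95% interval that covers counting error only. A gene was called where its whole interval lay beyond 4-fold, and only genes that reached 10 counts in total were tested. Counts of 3 or fewer were taken as the floor, so a fold against 0 counts is a lower bound computed against 3 counts. A gene with 1 to 3 counts in a library is given the ratio of its counts, and only list medians hold it at the floor. Its ratio is therefore not on the same measure as a bound. Smarcb1 itself had 365 and 530 counts, that is 10.5 and 19.8 CPM, with a log2 ratio of 0.91 (0.72 to 1.11). In bulk samples, fewer cells of a type and less RNA per cell cannot be told apart.

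Tight junctions seal the space between neighbouring epithelial or endothelial cells. Claudins form their strands, Ocln and the Marveld proteins sit beside them, and the zonula occludens proteins tie the strands to actin. Desmosomes fasten cells to each other mechanically: desmogleins and desmocollins, both cadherins, meet between the cells, and plakoglobin (Jup), plakophilins (Pkp) and desmoplakin (Dsp) link them to keratin or other intermediate filaments. Gap junctions are channels of connexins through which ions and small molecules pass from cell to cell. Different epithelia, vessel walls and glia use different members of each family, so that the set of members expressed is characteristic of the cell types in a tissue.

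Most members that differed were higher in the intracranial library. Of the 48 members with enough counts, 25 were called higher in the intracranial library and 3 in the extracranial library, which is 52.1% and 6.25%. Over all 21977 genes tested, 7.19% were called, 5.41% toward the intracranial library and 1.78% toward the extracranial library. Among the 15734 protein-coding genes tested the shares were 6.83% and 2.11%. The members' median log2 ratio was -2.68, with members at the floor held at their bound, against -0.04 for all genes.

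The differences were largely of presence against near absence. Of the 25 members called higher in the intracranial library, 18 had 3 or fewer counts in the extracranial library, and 7 (Dsc2, Dsc3, Gja1, Gjb2, Jup, Ocln and Pkp3) were above the floor there. The summed level of the 61 members was 2226 CPM in the intracranial library and 473.9 CPM in the extracranial library, and 24 and 14 members reached 10 CPM. Of the 20 members tested but not called, 11 lay within 2-fold of an equal level. Another 9 members had 1 to 9 counts in all, and 4 (Cldn13, Cldn16, Cldn22 and Gja3) had 0 counts in both libraries. Of the 9, values are given for Cldn6 (1 and 1 counts), Cldn9 (4 and 5), Cldn14 (1 and 0), Cldn20 (5 and 0), Cldn24 (4 and 5), Dsg4 (3 and 0), Gja6 (0 and 2) and Gja10 (0 and 1), each with the intracranial count first.

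**Figure D1:**
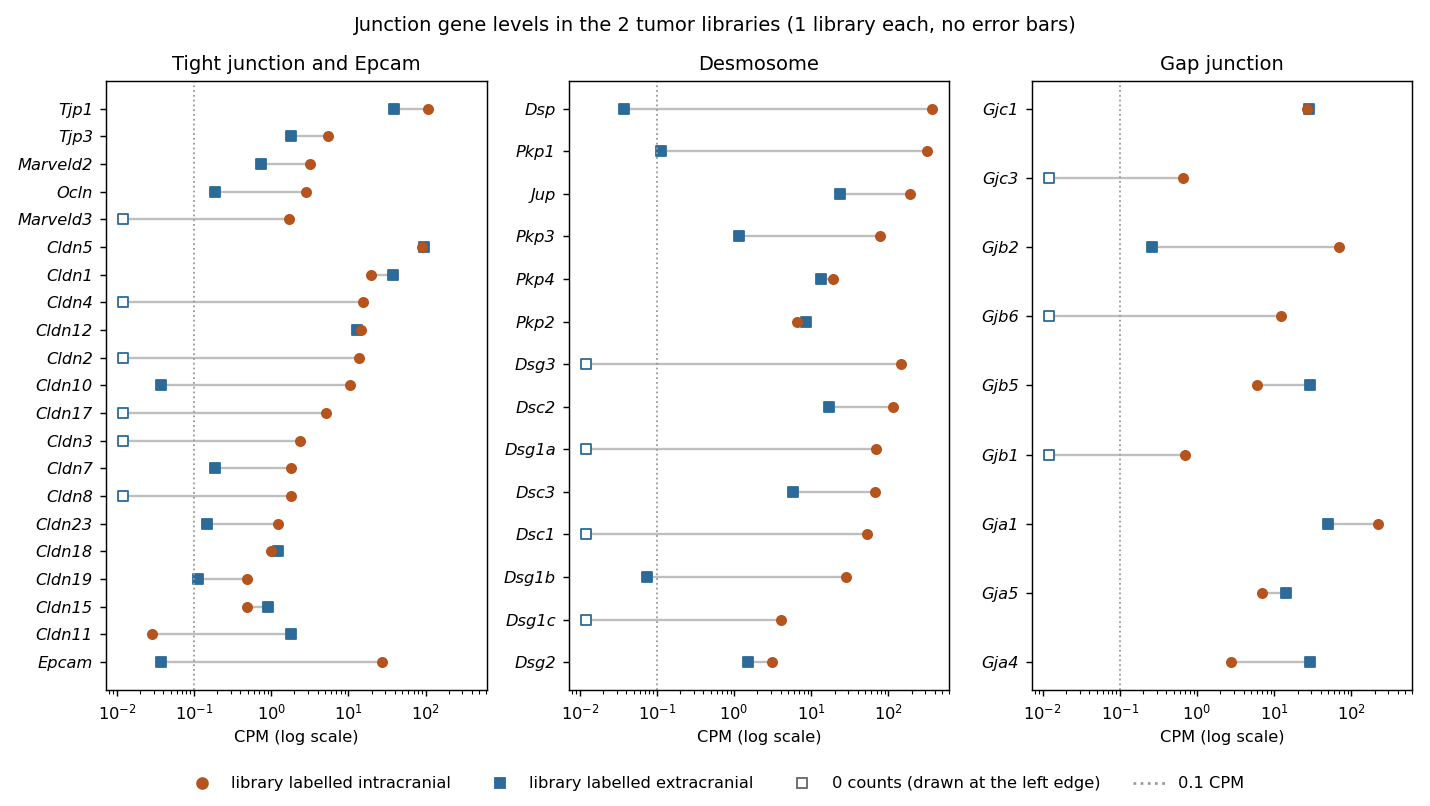
Level of 44 tested junction genes, in CPM on a log axis, with circles for the intracranial library, squares for the extracranial library, and open symbols for 0 counts, drawn at the left edge. The dotted line marks 0.1 CPM, near the floor of 3 counts, and 13 genes have an open square, all with more than 3 counts in the intracranial library.

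Markers of epithelium moved with this difference. The 10 stratified epithelium markers, among them keratins of the basal and upper layers, summed to 22774 CPM in the intracranial library and 3.18 CPM in the extracranial library, and 9 of 10 were called. The sum rested mainly on Krt13 (10554 CPM in the intracranial and 0.187 CPM in the extracranial library) and Krt4 (5747 and 0.336 CPM). Ivl, with 11 counts in the intracranial library, was not called. Krt5, Krt6a, Krt15, Trp63 and Ivl had 0 counts in the extracranial library. The 9 simple epithelium markers summed to 185 and 7.96 CPM, with 8 of 9 called in the same direction, and none was at 0 in the extracranial library except Krt19. The part of epithelial cells in each member's difference was not tested.

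**Figure D2:**
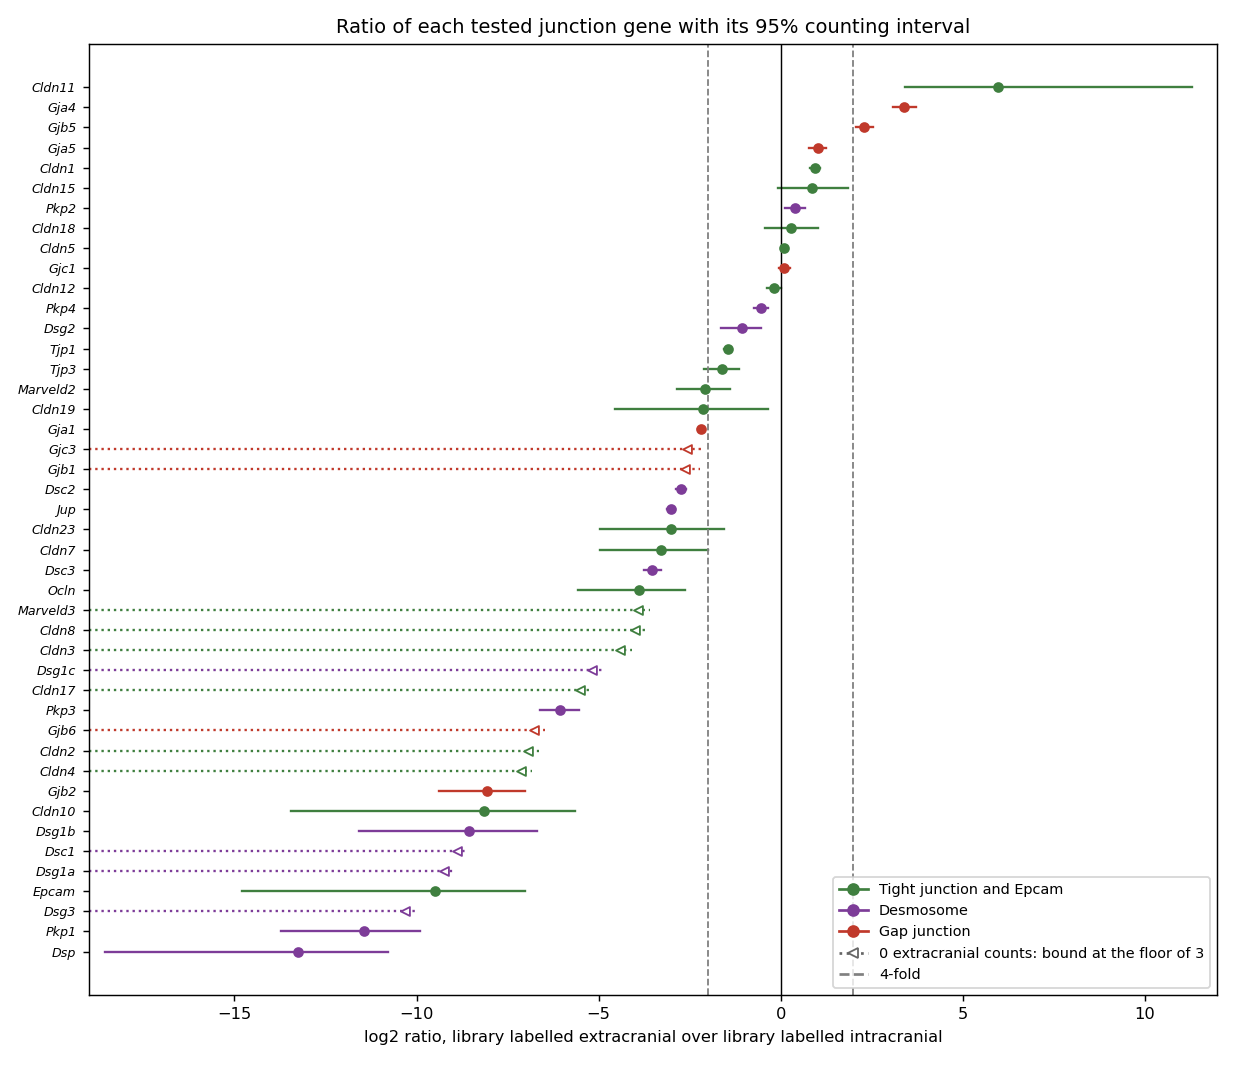
Log2 ratio, extracranial over intracranial, of 44 tested junction genes, ordered by ratio and coloured by structure, with 95% counting intervals. Open triangles mark genes with 0 counts in the extracranial library, placed at the bound against 3 counts, and the dashed lines mark 4-fold. Cldn11, Gja4 and Gjb5 lie wholly to the right of the upper dashed line, and 25 genes lie wholly to the left of the lower one.

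Nearly all desmosomal cadherins were higher in the intracranial library. Of 9 genes, 8 were tested, and 7 were called higher in the intracranial library, with a group median of -6.57. Dsg3 (ENSMUSG00000056632), the desmoglein of basal layers of stratified epithelium and of oral mucosa, had 4996 counts in the intracranial library and 0 in the extracranial library. Against the floor it was at least 1283-fold higher in the former. Dsc1 and Dsg1a, which belong to the upper, differentiating layers of epidermis, had 1842 and 2382 counts against 0, at least 472.9-fold and 611.5-fold higher. The Dsg1a paralogs followed them, Dsg1b with 970 and 2 counts (log2 ratio -8.55, -11.59 to -6.69) and Dsg1c with 142 and 0, at least 36.5-fold higher. Counts of these paralogs are uncertain one by one: in the annotation used here, 29.8% of 72-base windows of Dsg1a, 40.7% of Dsg1b and 21.1% of Dsg1c occur in another gene, mostly in each other.

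Of the cadherins, 3 remained above the floor in the extracranial library: Dsc2, Dsc3 and Dsg2. Dsc2, the desmocollin with the broadest expression, had 3940 and 457 counts and was 6.64-fold higher in the intracranial library (log2 ratio -2.73, -2.87 to -2.59). Dsc3, which accompanies Dsg3 in basal layers, had 2324 and 156 counts, an 11.5-fold difference (-3.52, -3.76 to -3.29). Dsg2, the desmoglein of simple epithelia and heart muscle, had 109 and 40 counts. Its log2 ratio of -1.07 (-1.63 to -0.53) was not called, and it was the only tested cadherin not called.

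The makeup of the cadherin set therefore differed between the libraries. Per kilobase of exon, Dsc2 took 25.1%, Dsg3 24.1%, Dsc3 14.5% and Dsg1a 14.1% of the set in the intracranial library, where the total was 85.5 CPM per kilobase. In the extracranial library, at 4.51 CPM per kilobase in all, Dsc2 took 71.7% (exact interval 68.1% to 75.0%), Dsc3 23.9% (20.7% to 27.4%) and Dsg2 4.0% (2.87% to 5.43%).

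All 9 desmosomal cadherin genes stand next to each other on chromosome 18, in the order Dsc3, Dsc2, Dsc1, Dsg1c, Dsg1a, Dsg1b, Dsg4, Dsg3 and Dsg2 of the gene models used here. Counts differed along this run. In the extracranial library, Dsc3 and Dsc2 at one end and Dsg2 at the other had 156, 457 and 40 counts, and the 6 genes between them had 0 to 2. In the intracranial library, Dsg4, a desmoglein of hair, had 3 counts between neighbours with 970 and 4996.

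**Figure D3:**
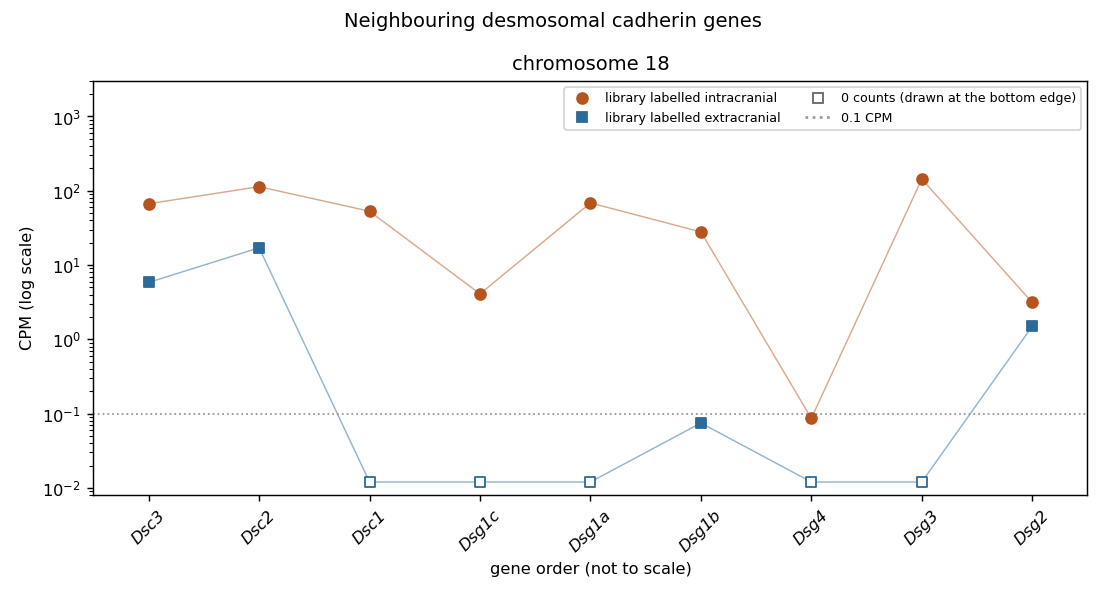
Levels in CPM (log axis) of the 9 desmosomal cadherin genes of chromosome 18, in gene order and not to scale; circles are the intracranial library, squares the extracranial library, and open squares 0 counts, drawn at the bottom edge. The extracranial squares lie above the dotted 0.1 CPM line at Dsc3, Dsc2 and Dsg2, and at or below it at the 6 genes between them.

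Plaque genes held some of the farthest ratios among the members. Dsp (ENSMUSG00000054889), which anchors intermediate filaments in every desmosome, had 12790 counts in the intracranial library and 1 in the extracranial library, 368.1 against 0.0374 CPM (log2 ratio -13.27, -18.57 to -10.79). With its 1 count held at the floor of 3, the log2 ratio of Dsp was -11.68. Pkp1, the plakophilin of upper stratified layers, had 10819 and 3 counts (-11.44, -13.72 to -9.89). Pkp3, found in most desmosome-bearing epithelia, had 2665 and 31 counts, a 66.2-fold difference (-6.05, -6.61 to -5.54). Jup, which serves adherens junctions as well as desmosomes, had 6596 and 633 counts and was 8.02-fold higher in the intracranial library (-3.00, -3.12 to -2.89).

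The remaining plakophilins were not called. Pkp2, the plakophilin of simple epithelia and heart muscle, had 225 and 228 counts (log2 ratio 0.40, 0.12 to 0.67). Pkp4, which is also found at adherens junctions, had 661 and 353 counts (-0.53, -0.72 to -0.34). Per kilobase, the plaque set in the intracranial library was led by Pkp1 (39.9%), Dsp (24.5%) and Jup (19.0%) of 155 CPM per kilobase. In the extracranial library, at 7.92 CPM per kilobase, Jup (46.4%), Pkp4 (29.2%) and Pkp2 (20.1%) led, and Dsp took 0.0488% (0.00124% to 0.272%).

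Genes that act beside desmosomes were described from a separate list of 11, which holds plakins, keratins and Perp, and of which Krt5, Krt14, Krt8 and Krt18 also count among the epithelium markers above. Of the 11, 10 were called higher in the intracranial library, and the list median was -7.65. Perp, a membrane protein needed for desmosome assembly in stratified epithelium, had 17912 and 3 counts (log2 ratio -12.17, -14.44 to -10.62). The plakins Ppl and Evpl had 3095 and 9 and 2604 and 10 counts. Krt10 was not called, with 428 and 67 counts (-2.30, -2.69 to -1.92).

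Most tested claudins were either near absence in the extracranial library or at like levels in both, but Cldn7, Cldn11 and Cldn23 were neither. Of 23 claudins, 15 were tested, 6 were called higher in the intracranial library and 1 (Cldn11) in the extracranial library, with a median of -3.02. Cldn4, a sealing claudin of several epithelia, had 541 counts against 0 and was at least 138.9-fold higher in the intracranial library. Cldn2, which forms cation and water pores in leaky epithelia, had 476 against 0, at least 122.2-fold higher. Cldn10, also a paracellular ion channel, had 368 and 1 counts (-8.15, -13.45 to -5.66).

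Smaller counts gave the same direction for 3 more claudins. Cldn17 had 178 counts against 0 and was at least 45.7-fold higher in the intracranial library. Cldn3 and Cldn8, both epithelial barrier claudins, had 83 and 62 counts against 0, at least 21.3-fold and 15.9-fold higher. Cldn17 and Cldn8 are neighbours on chromosome 16, and Cldn4 and Cldn3 on chromosome 5, and both genes of each pair were at 0 in the extracranial library. Cldn7 had 63 and 5 counts (log2 ratio -3.28, -4.95 to -1.98), just short of a call, since its interval ended at 3.95-fold. Cldn23 (42 and 4 counts) and Cldn19 (17 and 3), a claudin of Schwann cells and kidney, were not called.

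Cldn5 (ENSMUSG00000041378), the claudin of endothelium, was the most abundant claudin in both libraries. It had 3086 counts in the intracranial library and 2559 in the extracranial library, 88.8 and 95.6 CPM (log2 ratio 0.11, 0.03 to 0.18). Per kilobase it took 64.8% (63.7% to 66.0%) of the claudin set in the former and 83.6% (82.7% to 84.4%) in the latter, so that the summed claudin level was 96.8 and 80.8 CPM per kilobase although 7 claudins were called. Cldn1, a barrier claudin that is strong in epidermis but is found beyond it, had 689 and 1027 counts, 1.94-fold more CPM in the extracranial library (0.95, 0.81 to 1.09), and was not called. Cldn12 (510 and 346 counts), Cldn15 (17 and 24) and Cldn18 (35 and 33) had intervals that included an equal level.

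Cldn11 (ENSMUSG00000037625), the claudin of myelin and of Sertoli cells, was the only claudin called toward the extracranial library. It had 1 count in the intracranial library and 48 in the extracranial library, a log2 ratio of 5.96 (3.41 to 11.29). Of the 10 oligodendrocyte and astrocyte markers, 5 were tested and none was called. Olig2 and Opalin had 0 counts in both libraries, Mog had 1 and 2, and Mbp, a myelin protein, had 617 and 261 (log2 ratio -0.86). The part of such cells in the value of Cldn11 was not tested. Of the 10 Schwann cell markers, Sox10 had 43 and 0 counts and was called toward the intracranial library, whereas Egr2 had 630 and 2396 and was called toward the extracranial library.

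The other tight junction membrane proteins were low throughout. Ocln, with 97 and 5 counts, was 14.9-fold higher in the intracranial library (log2 ratio -3.90, -5.56 to -2.63), and Marveld3, with 59 and 0, was at least 15.1-fold higher. Marveld2, the tricellular junction protein tricellulin and the neighbour of Ocln on chromosome 13, had 110 and 20 counts (-2.08, -2.85 to -1.39) and was not called. The scaffolds differed by less. Tjp1 had 3740 and 1049 counts (log2 ratio -1.46, -1.56 to -1.36) and Tjp3 190 and 48 (-1.61, -2.10 to -1.14). Neither was called. The group of scaffolds had a median of -1.46.

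Of 19 further tight junction genes on a separate list, 4 were called, all higher in the intracranial library, and the list median was -0.77. The 4 were the cytoplasmic protein Cgn (248 and 4 counts), the polarity proteins Crb3 (150 and 2) and Pard6b (52 and 0), and the adhesion receptor Cxadr (276 and 6). F11r, a junctional adhesion molecule found on epithelium, endothelium and blood cells, had 1498 and 1175 counts (log2 ratio 0.03, -0.08 to 0.14). The list of 12 adherens junction core genes includes Cdh1, which also counts among the simple epithelium markers above. In it, only the classical cadherins Cdh1 (1906 and 26 counts) and Cdh3 (282 and 6) were called. Ctnnb1, their shared catenin, had 9331 and 5854 counts (-0.30, -0.34 to -0.25), and Cdh2 had 127 and 216 (1.14, 0.82 to 1.47).

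Epcam (ENSMUSG00000045394), a membrane protein of most simple epithelia that binds claudins, had 938 counts in the intracranial library and 1 in the extracranial library, 27.0 against 0.0374 CPM. Its log2 ratio was -9.50 (-14.80 to -7.02).

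Connexins showed differences in both directions. Of 16 genes, 12 were tested, and 5 were called higher in the intracranial library and 2 in the extracranial library. Gjb2 (ENSMUSG00000046352), the connexin of cochlea, skin and glands known as Cx26, had 2424 and 7 counts and was 266.7-fold higher in the intracranial library (log2 ratio -8.06, -9.38 to -7.01). Gjb6, its common partner in heteromeric channels, had 423 counts against 0, at least 108.6-fold higher. Gja1, the widely expressed Cx43, had 7768 and 1324 counts, a 4.52-fold difference (-2.18, -2.26 to -2.09), and was among the members nearest to the 4-fold bound, at 4.26-fold. Gjb1 and Gjc3, both connexins of myelinating glia, had 24 and 23 counts against 0, at least 6.16-fold and 5.90-fold higher.

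Gjb5 (ENSMUSG00000042357), a connexin of skin and placenta, did not share the direction of Gjb2 and Gjb6. It had 205 counts in the intracranial library and 776 in the extracranial library, 4.92-fold higher in the latter (log2 ratio 2.30, 2.07 to 2.53), with its nearer bound at 4.21-fold. Its counts in the extracranial library stood beside 0 counts of Krt5, Trp63 and Gjb6. Gjb5 and Gja4 lie on chromosome 4, whereas Gjb2 and Gjb6 lie close together on chromosome 14. The 6 beta connexins had a median of -1.08, with 3 called toward the intracranial library and 1 toward the extracranial library. Over the 5 with at least 100 counts, which leaves out Gjb1, the median was 0.46.

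Gja4 (ENSMUSG00000050234), the Cx37 of arterial endothelium, was the connexin with the farthest ratio toward the extracranial library. It had 97 and 786 counts, 2.79 and 29.4 CPM, a 10.5-fold difference (log2 ratio 3.40, 3.09 to 3.71). Gja5, the Cx40 of arterial endothelium and atrial muscle, had 243 and 379 counts (1.02, 0.78 to 1.26) and was not called, and 14.1% of its windows occur in another gene. Endothelium markers moved in the same direction. All 10 had intervals above an equal level, with a median of 1.20 and summed levels of 142 and 330 CPM, none was at 0, and none was called.

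Within that frame the 3 endothelial members spread widely. Gja4 lay above all 10 endothelium markers, the highest of which was Kdr, with a log2 ratio of 1.80. Gja5 lay among them. Cldn5 lay below the lowest, Tek, with 0.51. Of the smooth muscle and pericyte markers, Kcnj8 (2.57) and Abcc9 (2.33) were called in the direction of Gja4. Cnn1, with 164 and 1 counts, was called in the opposite one. This list was mixed, with 5 intervals above an equal level, 5 below it, a median of -0.33 and sums of 391 and 535 CPM. The part of vessel content in these ratios was not tested.

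Gjc1, a gamma connexin of conducting heart muscle and vessel wall, had 911 and 755 counts (log2 ratio 0.11, -0.04 to 0.25), an interval that included an equal level. Of 7 other gap junction channel genes, Panx1 had 647 and 466 counts and Panx2 16 and 2, and neither was called. Gjd2 and Gjd3 had 1 and 4 counts in the intracranial library and 0 in the other, and Gjd4, Gje1 and Panx3 had 0 in both.

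The leading connexin per kilobase differed between the libraries. The summed connexin level was 365.1 CPM in the intracranial and 175.2 CPM in the extracranial library. Per kilobase, Gjb2 took 37.7% (36.6% to 38.7%) and Gja1 28.3% (27.6% to 29.1%) of 77.0 CPM per kilobase in the intracranial library. In the extracranial library, Gja4 took 28.3% (26.8% to 29.9%) and Gjb5 27.4% (25.8% to 28.9%) of 61.6 CPM per kilobase, so that their order was within counting error. Gja1 held 7.83% and Gjb2 0.177% there. Without division by length, Gja1 led the connexins of both libraries.

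**Figure D4:**
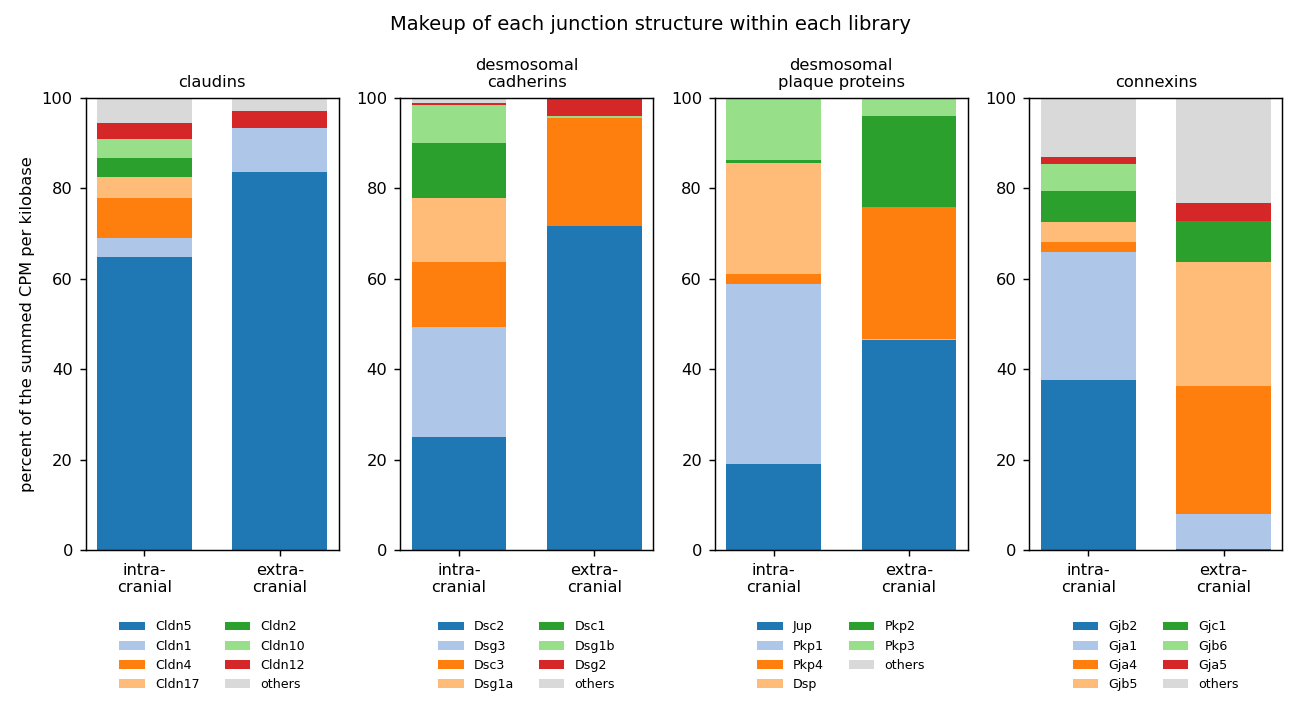
Share of each member in the summed CPM per kilobase of its structure, in percent, for the 2 libraries side by side (1 library each, no error bars); the remaining members are joined as others. Cldn5 leads the claudins of both libraries, whereas Dsg3, Dsg1a, Pkp1, Dsp and Gjb2 have wide bands in the intracranial library and almost none in the extracranial library.

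Sorted by the tissue in which each member is best known, stratified epithelium members (15 tested) had 11 called higher in the intracranial library, 1 higher in the extracranial library (Gjb5) and a median of -6.76. Simple and glandular epithelium members (9 tested) had 5 called, all higher in the intracranial library, and a median of -3.92. Endothelial members (3) had a median of 1.02 with 1 called toward the extracranial library. Glial and nerve members (5) had 2 and 1 called in the 2 directions, and the 12 widely expressed members had 5 called higher in the intracranial library with a median of -1.37.

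Transcription factors that open or close the epithelial program were measured beside the junction genes. Of 12 epithelial transcription and splicing factors, 11 were called higher in the intracranial library, with a median of -6.56. Of this list, Trp63 and Elf3 also count among the epithelium markers above. Grhl2, a Grainyhead-like factor that activates junction genes, had 331 counts against 0, and the splicing factor Esrp1 had 1561 and 1 (log2 ratio -10.23, -15.54 to -7.75). Klf4 was not called, with 9302 and 3558 counts (-1.01, -1.07 to -0.95). The 6 repressors, which bind E-boxes in promoters of Cdh1 and of claudins, were present in both libraries, and none was called. Their median was -0.75, with 4 intervals below an equal level, 1 above it and 1 that included it. Zeb1 had 2892 and 1040 counts (log2 ratio -1.10), and Zeb2, the 1 above, had 1926 and 3286 (1.15). Twist2 was low in both, with 9 and 4 counts.

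**Figure D5:**
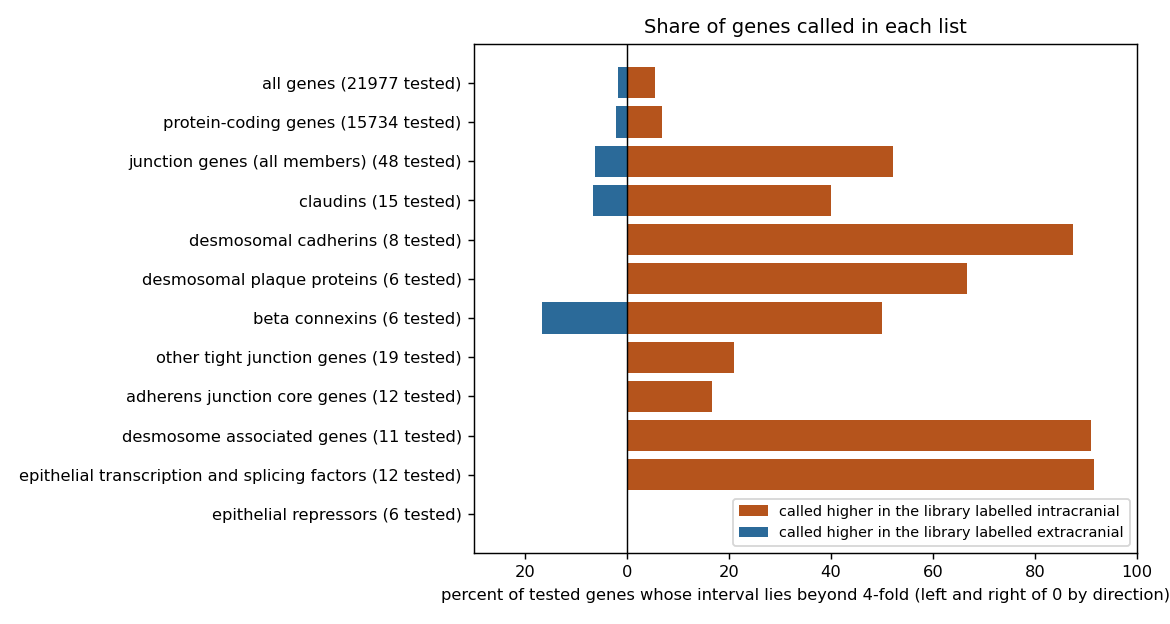
Percent of the tested genes of each list whose interval lay beyond 4-fold, to the right for the intracranial and to the left for the extracranial direction. Desmosomal cadherins, desmosome associated genes and epithelial factors have the longest right bars, all genes reach 5.41% to the right and 1.78% to the left, and the 6 repressors have no bar.

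Promoters of members with opposite patterns are shown so that the letters these factors are known to bind can be read. Each run is the 250 bases before the RefSeq start of transcription on the sense strand, 5′ to 3′, of build GRCm38.p6. Capitals mark an E-box of the Snail and Zeb type, CAGGTG or CACCTG, which are each other's reverse strand, or a Grainyhead-like match, AACCNGTT or its reverse strand AACNGGTT. The positions are chr17:87635729-87635978 (plus strand) for Epcam, chr5:134946935-134947184 (minus) for Cldn4, chr14:57104703-57104952 (minus) for Gjb2, chr14:57133612-57133861 (minus) for Gjb6 and chr4:127358165-127358414 (minus) for Gjb5.
Epcam: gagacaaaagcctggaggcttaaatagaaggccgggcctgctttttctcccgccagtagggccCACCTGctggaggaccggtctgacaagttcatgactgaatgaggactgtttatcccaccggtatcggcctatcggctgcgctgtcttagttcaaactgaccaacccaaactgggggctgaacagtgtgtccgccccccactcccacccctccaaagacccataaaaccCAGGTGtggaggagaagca
Cldn4: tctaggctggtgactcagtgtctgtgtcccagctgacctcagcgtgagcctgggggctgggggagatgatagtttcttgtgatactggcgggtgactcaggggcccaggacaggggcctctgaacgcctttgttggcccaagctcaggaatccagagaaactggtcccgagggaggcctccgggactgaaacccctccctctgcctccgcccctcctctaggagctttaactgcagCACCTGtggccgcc
Gjb2: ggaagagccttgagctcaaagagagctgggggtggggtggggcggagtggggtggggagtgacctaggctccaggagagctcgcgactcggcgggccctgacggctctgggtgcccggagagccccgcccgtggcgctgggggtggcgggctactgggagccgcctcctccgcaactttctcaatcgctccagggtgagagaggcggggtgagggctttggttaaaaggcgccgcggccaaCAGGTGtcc
Gjb6: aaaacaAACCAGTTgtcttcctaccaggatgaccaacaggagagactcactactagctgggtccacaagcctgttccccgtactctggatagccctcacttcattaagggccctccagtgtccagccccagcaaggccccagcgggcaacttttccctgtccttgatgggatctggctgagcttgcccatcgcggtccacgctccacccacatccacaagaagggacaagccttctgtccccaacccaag
Gjb5: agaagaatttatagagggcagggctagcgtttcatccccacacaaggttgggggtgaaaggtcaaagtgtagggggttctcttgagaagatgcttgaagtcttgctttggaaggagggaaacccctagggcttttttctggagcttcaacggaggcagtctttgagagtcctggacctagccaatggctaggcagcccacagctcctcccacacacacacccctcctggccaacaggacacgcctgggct

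Epcam held E-boxes starting 187 and 19 bases before its start, Cldn4 1 at 14 bases and Gjb2 1 at 9 bases. Gjb6 held a Grainyhead-like match starting 244 bases before its start, and Gjb5 held neither set of letters in this window. The printed promoters were picked by name and do not stand for their groups. Such matches are common. Of 32851 mouse promoters of this length, 17.2% held an E-box of this type, against 12 of the 54 promoters listed for 38 of the 61 members (22.2%). Among members called higher in the intracranial library it was 5 of 19 promoters, among those not called 4 of 20, and among those called higher in the extracranial library 0 of 3. The Grainyhead-like letters stood in 1.79% of all promoters and in 2 of the 54, those of Gjb6 and Cldn5. Among members called higher in the intracranial library they stood in 1 of 19 promoters. A match is a description of letters, and no binding was measured.

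Other cell types differed too. The 10 macrophage markers summed to 5831 and 13260 CPM, all with intervals above an equal level and Aif1 called. Among 8 tested fibroblast and meninges markers, Dcn and Lum were called toward the extracranial library, 5 had intervals below an equal ratio and 3 above it, and the median was -0.29. Of the odontoblast and ameloblast markers, Dmp1 had 29 and 3988 counts, and Dspp, Ambn, Mmp20 and Odam were at 0 in both. Their part in the members' values was not tested.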

How the data were processed

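Total RNA of 2 fresh frozen tumors had been made into poly(A) directional libraries and sequenced as single reads of 72 bases. The authors aligned reads with STAR 2.7.9a at default parameters to Ensembl gene models (GRCm39, per the labels) and counted them with featureCounts. The deposited table holds raw counts per Ensembl gene, 1 column per tumor. Strand setting and treatment of reads with several alignments are not given in the sources used here, so overlapping and near-identical genes are uncertain. Gene symbols, biotypes, order and exon lengths came from GENCODE release 21 (GRCm38), which named 94.1% of genes. Genes without a symbol held 0.694% and 0.950% of the counts and stayed in library sizes.

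Library sizes were multiplied by TMM factors from edgeR 4.0.16 in R 4.3.3 (1.006 and 0.994), and CPM are counts over these sizes, in the usual unit. The floor of 3 counts equals 0.0863 and 0.112 CPM. Ratios and shares in percent were given exact Clopper-Pearson 95% intervals with scipy 1.17.1. No test between locations could be fitted with 1 library each, and a call compares the libraries only. Reads without molecular identifiers are not independent, so intervals and floors cover counting error only. The interval and call were tested on counts simulated with counting error alone, which checks the computation and cannot show spread between tumors. Members and lists were chosen with earlier results of these data known. Every member is counted, some are not reported here by name, and other genes are named only from the lists, besides Smarcb1. Of the lists, 1 gene (Pals1) had no match. Cldn7 was among the 10 simple epithelium markers first listed and was left out of that list because it is a member. Alternatives were DESeq2 1.42.0 size factors, total counts, upper quartile scaling, other count minimums, a 2-fold interval, the ratio alone and CPM not divided by length.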

Additional observations from a re-analysis of the deposited data

How the results depend on the processing

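The numbers of members called, the members' median and the ratios of named members kept their direction and call under the scaling alternatives, which moved the median of genes with 100 or more counts by -0.02 to 0.04 on the log2 scale. Over all alternatives 20 to 31 members, of 36 to 57 tested, were called higher in the intracranial library and 2 or 3 in the extracranial library. With an interval beyond 2-fold, 31 of 48 members (64.6%) and 9.77% of all genes were called toward the intracranial library. Toward the extracranial library it was 3 of 48 members (6.25%) and 5.86% of all genes, so that the members' share was near that of all genes. With the ratio alone, 6.25% of members and 3.58% of all genes were called toward the extracranial library. With at least 100 counts, the beta connexin median turned from -1.08 to 0.46, since Gjb1 is left out and 5 genes remain, and the claudin median was -5.51 over 7 genes. CPM not divided by length gave, in the extracranial library, Cldn5 63.0%, Gja4 16.8% and Jup 50.7% of their structures, and in the intracranial library, Cldn5 49.9%, Gjb2 19.1%, Dsc2 23.6% and Pkp1 32.1%, by construction of that unit. Without the 5 members that share over 20% of their read-length windows, an alternative chosen after seeing the data, 22 and 3 of 45 members were called. No paired analysis was possible because neither location had more than 1 library, and leaving out a library would leave no comparison. Members with few counts have wide intervals, and depth cannot show whether a gene at 0 counts is absent.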
